A study of Homo sapiens with 6 samples.

Results

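The MYC and MAX network is a family of transcription factors that dimerize through a basic helix-loop-helix leucine zipper. Its members here were the 10 genes MYC, MYCN, MYCL, MAX, MXD1, MXD4, MXI1, MNT, MLX and MGA, taken by gene symbol from the 58676 genes of the deposited expression table. All 10 were among the 13745 genes tested. MYC, MYCN and MYCL dimerize with MAX and activate genes through E-box sequences, while MXD proteins, MNT and MGA compete for MAX and recruit repressors to the same sites. MLX is a second dimerization hub, which pairs with some MXD proteins, with MNT and with the glucose-sensing factors MondoA and ChREBP. In mammary epithelium MYC drives growth and ribosome production, and it is a known target of both Wnt/β-catenin and STAT3 signaling. BCL9 is a coactivator of β-catenin, and the study proposes that it may also act, directly or not, on transcription by STAT3.

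RNA sequencing compared 3 NS control with 3 BCL9 KD samples of DCIS.COM, an established basal cell line that models human ductal carcinoma in situ. Both groups were transduced with a lentiviral PLKO.1 vector. That vector was a non-silencing control in the NS group and carried a BCL9 shRNA in the KD group, and nothing else differed by label. The samples of a group are labelled as biological replicates grown in flasks, in DMEM/F12 medium with horse serum, whereas the methods state fewer biological replicates per condition for the differential test, so some of the 3 samples may not be independent cultures. Only 1 BCL9 shRNA was used, so loss of BCL9 and other effects of that shRNA cannot be told apart.

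Expression is given in FPKM, the reads on a gene scaled by gene length and by the reads on all genes of the sample. Depth was between 15222452 and 26949026 reads on genes per sample. BCL9 itself, a coactivator of β-catenin, was at 6.25, 6.24 and 5.34 FPKM in NS control and at 2.86, 2.78 and 2.59 FPKM in BCL9 KD replicates 1 to 3, and it fell by 0.99 on the log2 scale (SE 0.0933, limma adjusted p = 0.00773). Basal epithelial markers were expressed. KRT5 was at 398 and 413 FPKM in NS control and BCL9 KD, KRT17 at 570 and 561 FPKM and KRT14 at 35.5 and 37.2 FPKM. KRT6A was low, at 2.02 and 1.59 FPKM. None of 8 such markers was called by limma or voom. TP63 (0.27 on the log2 scale) and CDH1 (-0.16) were the 2 at an unadjusted p under 0.05 in limma, against 27.5% of all genes tested. KRT14, KRT6A, TP63 and CDH1 were named after their values were seen. Of 12 markers of fibroblasts, blood, endothelium and fat, 2 passed the filter on low values, and the summed level of all 12 was 2.44 to 2.98 FPKM in NS control and 3.96 to 4.53 FPKM in BCL9 KD. COL3A1 and ADIPOQ were at 0 in every sample. Of these markers only PECAM1, an endothelial adhesion molecule, rose, by 0.61 on the log2 scale (limma adjusted p = 0.0477, above 0.05 under 11 of 17 alternatives), and its part in the results below was not tested. PECAM1 made up most of the summed level, at 2.28, 2.29 and 1.72 FPKM in NS control and 3.91, 3.11 and 3.32 FPKM in BCL9 KD. In bulk RNA, fewer cells of a type and less RNA per cell cannot be told apart.

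Fold changes here are differences of log2(FPKM + 0.5), BCL9 KD minus NS control, tested with limma across all genes, and a gene was called at a Benjamini-Hochberg adjusted p under 0.05. Adding 0.5 FPKM understates the change of low genes. None of the 10 network members was called by limma, against 5.87% of all genes tested (407 higher and 400 lower), while 1 member had an unadjusted p under 0.05 and 1 was called by voom, limma's test on reads recovered from the FPKM. Over all genes tested, 3775 of 13745 (27.5%) had an unadjusted p under 0.05, which is the background for each such count given here. In 2 of 10 members the NS control and BCL9 KD values did not overlap, against 34.2% of all genes tested. MYCL, part of this count, passed the filter on low values only through NS control, where it was high, so its separation supports nothing. The median log2 fold change was 0.05 over the members and 0.04 over all genes tested.

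MYC, the most highly expressed member, was nearly level. Its gene lies at chr8:127735434-127741434 on the plus strand (ENSG00000136997, hg38, the build of all gene positions here). MYC was at 54.8, 52.7 and 51.8 FPKM in NS control replicates 1 to 3 and at 51.5, 57.6 and 55.5 FPKM in BCL9 KD replicates 1 to 3. The groups overlapped, and BCL9 KD replicate 1 was the lowest of all 6 samples while BCL9 KD replicate 2 was the highest. The mean was 53.1 ± 1.56 (SD, n = 3) in NS control and 54.9 ± 3.08 in BCL9 KD. The log2 fold change was 0.05 (SE 0.0691, limma adjusted p = 0.694), and its 95% confidence interval covered folds from 0.921 to 1.16. Each sample held between 2367 and 4660 reads on MYC.

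MYCN, the paralog best known from neuroblastoma and embryonic tissue, was expressed far below MYC but was higher in every BCL9 KD sample than in any NS control sample. It lies at chr2:15940564-15947007 on the plus strand (ENSG00000134323). MYCN was at 0.643, 0.817 and 0.808 FPKM in NS control and at 1.5, 1.41 and 1.25 FPKM in BCL9 KD replicates 1 to 3. The lowest BCL9 KD sample, replicate 3, still lay above the highest NS control sample, replicate 2. The mean was 0.756 ± 0.0979 in NS control and 1.39 ± 0.126 in BCL9 KD (SD, n = 3), a ratio of 1.84. The log2 fold change was 0.59 (SE 0.134, 95% confidence interval 0.27 to 0.91), and with a limma adjusted p of 0.0511 it missed the threshold by a small margin. MYCN was called with voom (0.86, adjusted p = 0.0332), after a correction for GC content (0.67, adjusted p = 0.0355) and without a mean-variance trend (adjusted p = 0.0418). With a filter of a mean of 1 FPKM its adjusted p was 0.0493, but MYCN passed that filter only through the BCL9 KD group, where it was high, so this value supports nothing. It was higher in BCL9 KD under all 17 alternatives, with log2 fold changes between 0.44 and 0.86 and adjusted p between 0.0332 and 0.208.

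The MYCN values rest on 38, 43 and 32 reads in NS control and 69, 99 and 51 reads in BCL9 KD replicates 1 to 3, far fewer than those of MYC. The antisense gene MYCNOS overlaps MYCN, and the library kit is not stated to mark strand, so reads from the shared stretch cannot be assigned to one strand. MYCNOS itself held between 3 and 9 reads per sample.

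MYCL, the paralog first found in small cell lung cancer, had the lowest level of the network in most samples. It lies at chr1:39895426-39902256 on the minus strand (ENSG00000116990). MYCL was at 0.939, 0.527 and 0.584 FPKM in NS control and at 0.391, 0.44 and 0.429 FPKM in BCL9 KD replicates 1 to 3. The groups did not overlap, yet NS control replicate 1 stood well above the other NS control samples. The mean was 0.683 ± 0.223 in NS control and 0.42 ± 0.0255 in BCL9 KD (SD, n = 3), and the log2 fold change of -0.35 (SE 0.191, 95% confidence interval -0.8 to 0.1, limma adjusted p = 0.279) was not distinguishable from 0. Without NS control replicate 1 it was -0.20. MYCL passed the filter of a mean of 0.5 FPKM over all samples only through the NS control group, where it was high. Its separation and estimate therefore support nothing, and it held between 34 and 108 reads per sample. NS control replicate 1 also differed from the other samples in base composition, with a slope on GC content of its deviation from the mean log2(FPKM + 0.5) of all 6 samples of 0.209 per 10 percentage points, against -0.0741 to 0.0149 in the other 5 samples. The part of this in the MYCL values was not tested beyond the GC correction, which gave a log2 fold change of -0.26.

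**Figure D1:**
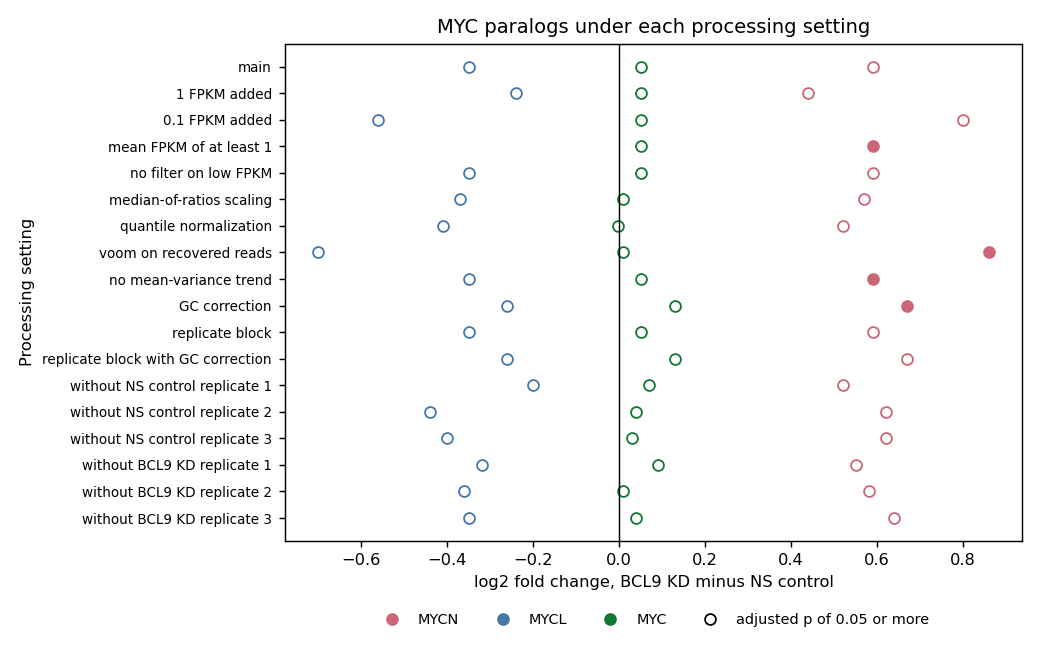
Log2 fold change (BCL9 KD minus NS control, x axis) of MYC, MYCN and MYCL under the reported processing ("main") and each alternative setting (y axis), with filled points where the adjusted p was under 0.05. MYCN lay between 0.44 and 0.86 under the 17 alternatives and was called under 4 of them, including the filter of 1 FPKM that it passed only through BCL9 KD. MYCL lay between -0.70 and -0.20 under 16 (it was not tested with that filter). MYC lay between -0.00259 and 0.13 and was not called.

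Together the 3 MYC paralogs summed to 53.2 to 56.4 FPKM in NS control and 53.4 to 59.5 FPKM in BCL9 KD, ranges that overlapped. MYC supplied 97.2 to 97.5% of that sum in NS control and 96.5 to 97.1% in BCL9 KD. The MYCN share was 1.14, 1.51 and 1.52% in NS control and 2.81, 2.37 and 2.19% in BCL9 KD replicates 1 to 3. The ratio of MYCN to MYCL was 0.685, 1.55 and 1.38 in NS control and 3.84, 3.21 and 2.92 in BCL9 KD. Its separation was fixed by those of MYCN and MYCL, and MYCL passed the filter only through NS control, so the ratio supports nothing. MYC was the dominant paralog by FPKM in every sample.

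MAX, the obligate partner of MYC paralogs, was at 5.21, 6.17 and 6.79 FPKM in NS control and at 6.44, 7.63 and 6.4 FPKM in BCL9 KD replicates 1 to 3. The groups overlapped, with NS control replicate 1 the lowest and BCL9 KD replicate 2 the highest sample. The log2 fold change was 0.16 (SE 0.118, limma adjusted p = 0.4), and it moved to 0.07 without NS control replicate 1, to 0.08 without BCL9 KD replicate 2 and to 0.24 without NS control replicate 3. MAX lies at chr14:65006174-65102695 on the minus strand (ENSG00000125952), and its span overlaps the opposite-strand gene FNTB, a farnesyltransferase subunit that held 95 to 252 reads per sample. By FPKM, MYC exceeded MAX by 7.63 to 10.5 times in NS control and by 7.55 to 8.67 times in BCL9 KD, so the mRNA of the shared partner was the lower of the pair in all 6 samples.

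**Figure D2:**
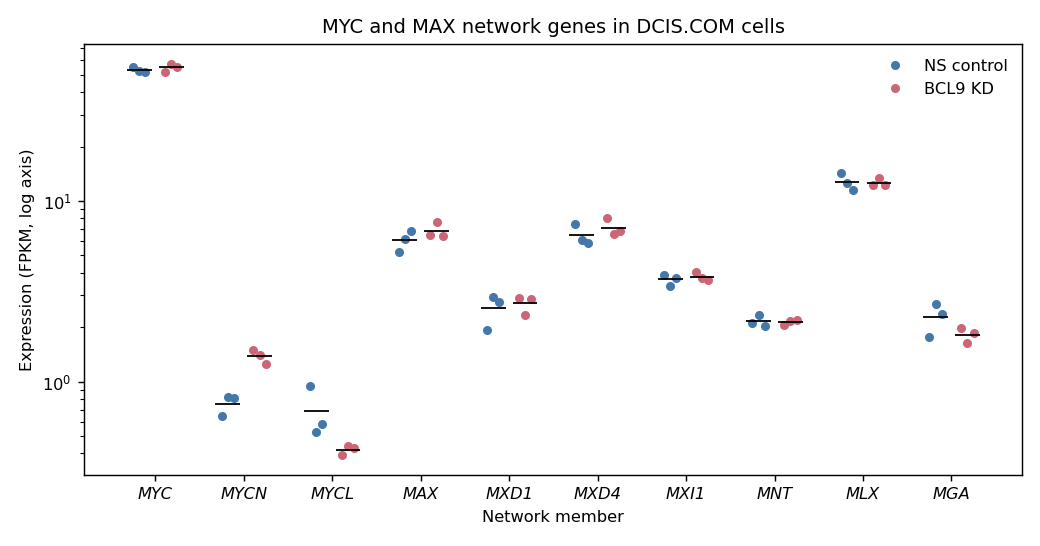
FPKM (log axis) of the 10 network members in each of 3 NS control and 3 BCL9 KD samples, as points, with the group mean as a bar. MYC was highest at 51.5 to 57.6 FPKM. The groups were separate for MYCN (higher in BCL9 KD) and MYCL (lower in BCL9 KD) alone, against 34.2% of all genes tested. MYCL passed the filter on low values only through NS control, so its separation supports nothing.

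The MXD proteins, which take MAX from MYC and recruit the SIN3 histone deacetylase complex, are typically induced as cells leave the cycle or differentiate. MXD4 was the most highly expressed of them, at 7.5, 6.06 and 5.87 FPKM in NS control and 8.04, 6.52 and 6.81 FPKM in BCL9 KD replicates 1 to 3. Replicate 1 was the highest sample of each group, the groups overlapped, and the log2 fold change was 0.13 (SE 0.121, limma adjusted p = 0.505). It was 0.05 without BCL9 KD replicate 1, 0.07 without NS control replicate 3 and 0.23 without NS control replicate 1. MXI1 was at 3.91, 3.38 and 3.74 FPKM in NS control and 4.05, 3.73 and 3.63 FPKM in BCL9 KD, with overlapping groups and a log2 fold change of 0.04 (SE 0.0902, adjusted p = 0.77). MXD1, the founding MAD protein, was at 1.93, 2.95 and 2.76 FPKM in NS control and 2.9, 2.35 and 2.86 FPKM in BCL9 KD. Its lowest and highest samples were both NS controls, and the log2 fold change was 0.09 (SE 0.158, adjusted p = 0.748). MXD1 shares sequence on the same strand with the splicing factor gene SNRNP27, so reads from the shared stretch may not have been assigned to either gene. The summed MXD1, MXD4 and MXI1 level relative to the summed MYC paralogs was 0.236, 0.229 and 0.233 in NS control and 0.281, 0.212 and 0.233 in BCL9 KD, so the BCL9 KD samples lay on both sides of the NS control samples.

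MNT, a repressor that is expressed in proliferating and resting cells alike, was at 2.1, 2.33 and 2.03 FPKM in NS control and 2.07, 2.17 and 2.18 FPKM in BCL9 KD replicates 1 to 3. All BCL9 KD values fell inside the NS control range, with a log2 fold change of -0.01 (SE 0.0956, limma adjusted p = 0.962, 95% confidence interval -0.23 to 0.22). MLX was at 14.3, 12.5 and 11.6 FPKM in NS control and 12.2, 13.4 and 12.3 FPKM in BCL9 KD, again inside the NS control range, with a log2 fold change of -0.01 (SE 0.0943, adjusted p = 0.94). The small estimates of MNT and MLX changed sign to 0.07 with the GC correction. MGA, a very large protein that also carries a T-box domain and anchors a polycomb complex, was at 1.77, 2.69 and 2.37 FPKM in NS control and 1.97, 1.64 and 1.85 FPKM in BCL9 KD. NS control replicate 1 lay among the BCL9 KD samples while NS control replicates 2 and 3 lay above them all. The log2 fold change of MGA was -0.25 (SE 0.149, 95% confidence interval -0.6 to 0.11, adjusted p = 0.321), and it was below 0 under all 17 alternatives, from -0.38 to -0.14.

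These genes lie at chr4:2247432-2262294 (MXD4, minus strand, ENSG00000123933), chr10:110207605-110287365 (MXI1, plus, ENSG00000119950), chr2:69897688-69942945 (MXD1, plus, ENSG00000059728), chr17:2384060-2401118 (MNT, minus, ENSG00000070444), chr17:42567068-42573239 (MLX, plus, ENSG00000108788) and chr15:41621224-41773081 (MGA, plus, ENSG00000174197).

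**Figure D3:**
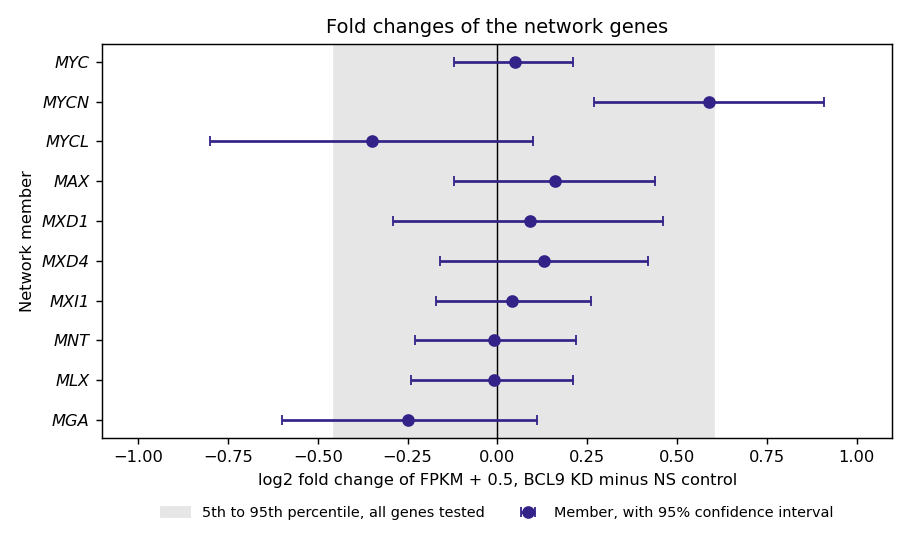
Log2 fold change of FPKM + 0.5 (BCL9 KD minus NS control, x axis) of each network member, as a point with its 95% confidence interval, over a grey band from the 5th to the 95th percentile of all 13745 genes tested (-0.454 to 0.604). The MYCN interval, 0.27 to 0.91, was the only one of the 10 that left out 0.

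Ordered by FPKM in NS control, the members ran MYC, MLX, MXD4, MAX, MXI1, MXD1, MGA, MNT, MYCN and MYCL. Neighbours whose NS control ranges overlapped were MXD4 and MAX, MXD1 and MGA, MGA and MNT, and MYCN and MYCL. In BCL9 KD the order was the same at the top, MNT stood above MGA, and MXD4 with MAX was the only pair of neighbours that overlapped.

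The network binds E-boxes, and several of its own genes carry one near the start of transcription. RefSeq promoter windows of 250 bases before to 50 bases after the start (GRCh38.p14) were found for 9 of 10 members and searched for CACGTG, which reads the same on both strands. MXD4, MNT and MLX held a match, 3 of 9 members, against 2548 of 35116 promoters (7.26%) in all and 1145 of 8919 tested genes with a promoter entry (12.8%). The windows below show these matches in 26 bases each, 5′ to 3′ on the gene's strand, with the E-box in capitals, because CACGTG is the sequence that the network's dimers bind. A match is a description of the letters and not a measured binding site.
MXD4, chr4:2262332-2262357, minus strand: gccgggccacCACGTGctgttgctaa
MNT, chr17:2401238-2401263, minus strand: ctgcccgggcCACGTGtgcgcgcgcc
MLX, chr17:42567040-42567065, plus strand: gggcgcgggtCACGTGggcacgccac

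The E-box itself began 238 bases before the start of MXD4, 193 before that of MNT and 50 before that of MLX. As given above, none of the 3 genes was called. The 7-base TCF/LEF motif CTTTGAT, searched on both strands, was in 2.62% of all promoters, and the STAT motif TTCNNNGAA was in 7.66%. Neither was found in the windows of the 9 members matched, which says only that these letters are absent from those windows.

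Of the remaining dimerization partners, MLXIP, which encodes the glucose sensor MondoA, was at 7.44, 7.0 and 6.15 FPKM in NS control and at 5.86, 5.11 and 5.06 FPKM in BCL9 KD replicates 1 to 3. All BCL9 KD samples lay below all NS control samples, but the log2 fold change of -0.33 (SE 0.0999) did not pass the test (limma adjusted p = 0.0919). Without NS control replicate 3 limma called it lower, and under none of the other 16 alternatives. MXD3, an MXD protein found in proliferating cells, was at 2.25, 1.53 and 1.54 FPKM in NS control and 2.24, 2.25 and 2.4 FPKM in BCL9 KD. NS control replicate 1 lay with the BCL9 KD samples, and the log2 fold change was 0.31 (SE 0.142, adjusted p = 0.21). MLXIPL, which encodes ChREBP, was close to 0 (means of 0.0164 and 0.0116 FPKM) and was not tested.

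Among glucose-responsive targets of MondoA with MLX, TXNIP rose in BCL9 KD. TXNIP encodes an arrestin-like protein that restrains glucose uptake and binds thioredoxin. It was at 39.7, 42.9 and 41.5 FPKM in NS control and at 61.4, 62.2 and 60.9 FPKM in BCL9 KD replicates 1 to 3, so the gap between the groups was several times the spread within either. The ratio of means was 1.49, and the log2 fold change was 0.57 (SE 0.062, limma adjusted p = 0.0109). TXNIP was higher under all 17 alternatives (0.53 to 0.59) and called under 13. The calls were lost with a replicate block and without NS control replicate 2, BCL9 KD replicate 2 or BCL9 KD replicate 3 (adjusted p up to 0.0913). Over all genes these settings called 0, 12, 13 and 5 genes, in that order.

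Of the other members of that list, ARRDC4, a paralog of TXNIP, was at 9.07, 11.99 and 10.9 FPKM in NS control and 13.9, 12.2 and 12.8 FPKM in BCL9 KD. KLF10, a zinc finger factor, was at 7.28, 8.3 and 7.71 FPKM in NS control and 8.42, 9.41 and 9.66 FPKM in BCL9 KD. The groups did not overlap in either gene, as in 34.2% of all genes tested, and neither passed the test (log2 fold changes 0.28 and 0.23, limma adjusted p = 0.172 and 0.15). PKLR, the liver pyruvate kinase, was near 0 and not tested. Thus 1 of 3 tested genes of this list rose and none fell, against 5.87% of all genes called, with a median of 0.28 against 0.04 for all genes.

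The carbohydrate response element, a pair of E-box-like CACGNG sequences 5 bases apart to which MLX dimers bind, was found as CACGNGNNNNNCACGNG on either strand in 20 of 35116 promoters (0.057%), among them that of TXNIP. It is shown here with its fixed bases in capitals, because TXNIP was the called target, beside the CACGTG match of ARRDC4, since both lie next to the genes just described.
TXNIP, chr1:145996646-145996671, minus strand, motif from 88 bases before the start: tgtgCACGaGggcagCACGaGcctcc
ARRDC4, chr15:97960483-97960508, plus strand, motif from 210 bases before the start: acggcctgtgCACGTGcacgccggag

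Of 18 cofactors and regulators of MYC protein, 2 fell and none rose (11.1% called, against 5.87% of all genes in either direction and 2.91% lower), with a median log2 fold change of -0.05. HUWE1, a ubiquitin ligase that acts on MYC and on many other proteins, was at 55.0, 52.1 and 43.5 FPKM in NS control and at 37.8, 30.8 and 30.5 FPKM in BCL9 KD replicates 1 to 3. It fell by 0.60 on the log2 scale (SE 0.122, limma adjusted p = 0.0422). EP400, the ATPase of a chromatin remodeling complex that MYC recruits with TRRAP, was at 10.3, 9.86 and 8.36 FPKM in NS control and at 7.27, 5.73 and 5.81 FPKM in BCL9 KD. It fell by 0.57 (SE 0.121, adjusted p = 0.0466). In both genes NS control replicate 3 was the lowest control and BCL9 KD replicate 1 the highest knockdown sample, and the groups did not overlap. Both were lower under all 17 alternatives, with HUWE1 called under 9 and EP400 under 8. Both calls were lost without NS control replicate 1, NS control replicate 2, BCL9 KD replicate 2 or BCL9 KD replicate 3, and also without a filter, without a trend and with a replicate block with or without GC correction (adjusted p up to 0.185 for HUWE1 and 0.196 for EP400). EP400 was also not called with median-of-ratios scaling. Over the list, voom called 3 genes lower, and without NS control replicate 3 limma called 4 lower and 1 higher.

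Of the SIN3 and histone deacetylase complex that MXD proteins and MNT recruit, none of 13 genes was called by limma or voom, while 3 had an unadjusted p under 0.05 in limma, against 27.5% of all genes, and the median log2 fold change was 0.05 (range -0.26 to 0.69). Of 9 partners of MGA in its polycomb complex none was called by either tool, with 2 at an unadjusted p under 0.05 in limma and a median of 0.15 (range -0.19 to 0.54). Other settings called single genes of these lists. With the GC correction RBBP4, a histone chaperone of the SIN3 complex, was lower (adjusted p = 0.0339), and TFDP1, the E2F dimerization partner, was higher (adjusted p = 0.0452), both named after their values were seen. Without NS control replicate 3 limma called 1 gene of each list higher.

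Canonical MYC-activated genes are the readout most often used for MYC activity, and they include nucleolar, ribosome biogenesis, nucleotide synthesis and cell cycle genes. Of 64 such genes, 62 were tested, and 5 fell while none rose. That is 8.06%, against 2.91% of all genes tested that were called lower. The median log2 fold change of the list was -0.06 against 0.04 for all genes, 43 of 62 were below 0, and in 22 of 62 (35.5%) the groups did not overlap, against 34.2% of all genes. The genes that fell were NOLC1, TCOF1, PPRC1, RRP12 and TMEM97, and the estimates of the list ran from -0.55 to 0.65.

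NOLC1, a nucleolar phosphoprotein that works in the assembly of RNA polymerase I machinery, was at 93.1, 93.3 and 90.2 FPKM in NS control and at 72.2, 75.5 and 74.8 FPKM in BCL9 KD replicates 1 to 3. Both groups were tight and apart, and it fell by 0.31 on the log2 scale (SE 0.0596, limma adjusted p = 0.0372). TCOF1, or treacle, which acts with NOLC1 in ribosomal DNA transcription, was at 55.0, 51.2 and 43.7 FPKM in NS control and 37.3, 34.0 and 35.3 FPKM in BCL9 KD. It fell by 0.48 (SE 0.0974, adjusted p = 0.0416), with NS control replicate 3 closest to the BCL9 KD samples.

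RRP12, a factor in export and maturation of ribosomal subunits, was at 10.5, 10.01 and 8.25 FPKM in NS control and 6.46, 6.36 and 6.27 FPKM in BCL9 KD. It fell by 0.55 (SE 0.101, limma adjusted p = 0.034), the largest estimate in size of the called genes of this list. PPRC1, a coactivator of nuclear genes for mitochondria, was at 25.2, 22.5 and 19.5 FPKM in NS control and 16.0, 16.0 and 16.2 FPKM in BCL9 KD. TMEM97, the sigma-2 receptor of the endoplasmic reticulum, was at 31.6, 31.2 and 27.5 FPKM in NS control and 20.5, 22.0 and 22.2 FPKM in BCL9 KD. They fell by 0.46 (adjusted p = 0.0466) and 0.47 (adjusted p = 0.0294), and in all of these genes NS control replicate 3 was the lowest control while still above the BCL9 KD samples.

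**Figure D4:**
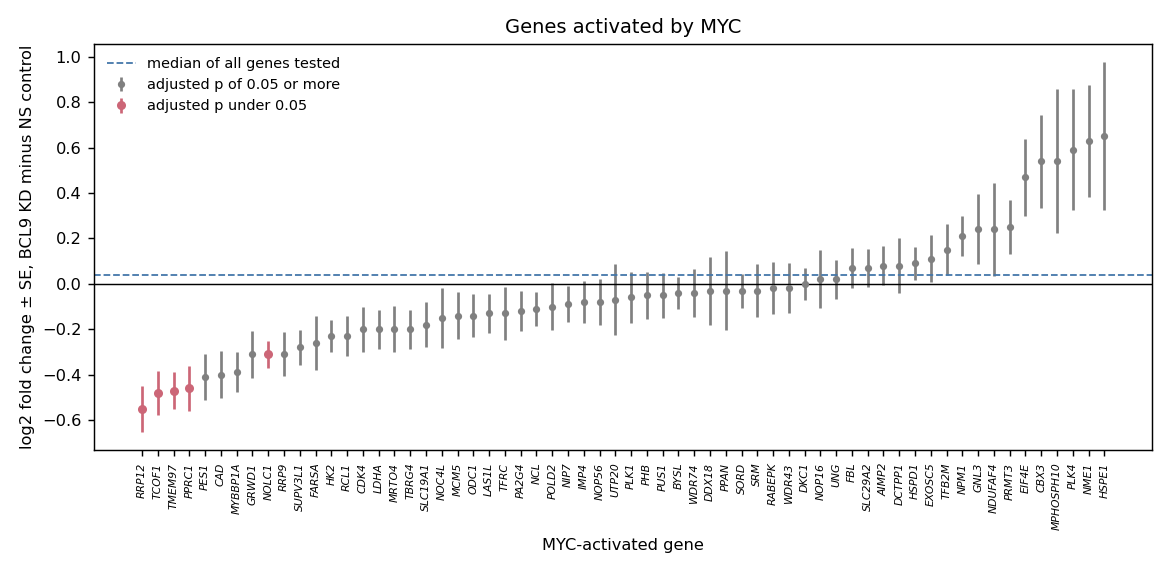
Log2 fold change ± SE (BCL9 KD minus NS control, y axis) of the 62 MYC-activated genes tested, in order of size, with the 5 genes of adjusted p under 0.05 in red and the median of all genes tested (0.04) as a dashed line. Most points, 43 of 62, lay below 0.

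The count of MYC-activated genes depended on single samples and on the processing. All 5 genes were lower under all 17 alternatives, but none of the 5 was called without NS control replicate 2, BCL9 KD replicate 1, BCL9 KD replicate 2 or BCL9 KD replicate 3, nor without a filter, without a trend or with a replicate block with or without GC correction. Without BCL9 KD replicate 1 the calls were 2 higher and 0 lower, and without NS control replicate 3 they were 2 higher and 9 lower. With the GC correction the list median was -0.01, and 9 genes were called, all lower, with all 5 of the genes above among them. The E-box CACGTG was in the promoter window of 29 of 54 MYC-activated genes with an entry (53.7%), against 12.8% of tested genes with one. The list was made of known MYC targets, so this share says nothing about BCL9 KD. Of the 5 called genes only PPRC1 and TMEM97 had an entry, and neither held a match, while NOLC1, RRP12 and TCOF1 were not searched. IPO4 and NOP2, named after their values were seen, stood near 0 (means of 0.0033 and 0.0909 FPKM in NS control) and were not tested.

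Of genes that MYC represses, 6 of 8 were tested and none was called by limma, with 4 at an unadjusted p under 0.05 (27.5% of all genes) and a median of -0.18 (range -0.46 to 0.64). Voom called 1 of them higher and 1 lower, as did limma with the GC correction, and these were GADD45A and NDRG1 in both. Limma also called 1 higher with a filter of 1 FPKM, with GC correction and the replicate block and without BCL9 KD replicate 1, and 1 lower with quantile scaling and without NS control replicate 3. GADD45A, a growth arrest and DNA damage gene, was at 6.41, 6.69 and 7.24 FPKM in NS control and 8.45, 12.8 and 11.6 FPKM in BCL9 KD (limma 0.64, adjusted p = 0.0541, voom adjusted p = 0.0329, GC-corrected adjusted p = 0.0339). NDRG1, a stress-induced differentiation gene, was at 12.9, 11.5 and 9.78 FPKM in NS control and 8.78, 7.84 and 7.71 FPKM in BCL9 KD (limma -0.46, adjusted p = 0.0595, voom adjusted p = 0.0331, GC-corrected adjusted p = 0.0344). Both genes were named after their values were seen.

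The Wnt and STAT3 targets bear on the upstream side, since MYC is itself a target of both. Of 12 Wnt target genes 7 were tested, and limma called 1 lower and none higher, against 2.91% of all genes called lower and 5.87% either way, with a median log2 fold change of -0.19 against 0.04, while voom called 1 lower and 1 higher. The gene that voom alone called was DKK1, a secreted Wnt inhibitor, named after its values were seen. DKK1 was at 1.06, 2.06 and 2.17 FPKM in NS control and 2.85, 3.43 and 3.36 FPKM in BCL9 KD replicates 1 to 3, with groups apart (limma 0.75, SE 0.215, adjusted p = 0.0823, voom 0.94, adjusted p = 0.0378). AXIN2, the usual feedback target, was close to 0 in both groups (0.0224 and 0.0124 FPKM, named after its values were seen). CCND1, or cyclin D1, a target of both pathways, was at 96.5, 96.3 and 81.3 FPKM in NS control and at 67.0, 61.6 and 60.0 FPKM in BCL9 KD replicates 1 to 3. It fell by 0.53 on the log2 scale (SE 0.0909, limma adjusted p = 0.0301), with groups that did not overlap. MYC over the same samples changed by 0.05.

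Of 10 STAT3 targets all were tested, CCND1 fell and FOS rose, against 5.87% of all genes called, with a median log2 fold change of 0.05 against 0.04. Limma called 2 higher and 1 lower with the GC correction, where JUNB, an AP-1 gene named after its values were seen, had an adjusted p of 0.0191, and also without NS control replicate 1. FOS, a subunit of AP-1, was at 1.9, 2.11 and 1.44 FPKM in NS control and 3.42, 3.36 and 3.43 FPKM in BCL9 KD, and it rose by 0.76 (SE 0.127, limma adjusted p = 0.029). CCND1 and FOS were each called under 10 of 17 alternatives. Both calls were lost without NS control replicate 2, BCL9 KD replicate 2 or BCL9 KD replicate 3, without a filter and with a replicate block with or without GC correction. The call of FOS was also lost without BCL9 KD replicate 1, and that of CCND1 without a trend. Of 10 squamous differentiation genes, a setting in which MXD genes are known to be induced, 4 were tested, and 1 fell and none rose, against 2.91% of all genes called lower and 5.87% either way. KRT10 (0.72, adjusted p = 0.111), SPRR1A (0.25, adjusted p = 0.663) and SPRR1B (0.78, adjusted p = 0.105), named after their values were seen, had estimates above 0 that did not pass. SPRR1B, with 2 to 18 reads per sample, passed the filter on low values only through BCL9 KD, where it was high, so its estimate and the list's median of 0.49 support nothing. Without BCL9 KD replicate 1 limma called 1 gene of the list higher and 1 lower. IVL, or involucrin, was at 1.66, 2.07 and 2.04 FPKM in NS control and 1.05, 0.948 and 0.919 FPKM in BCL9 KD, and it fell by 0.71 (SE 0.124, adjusted p = 0.0308). IVL was called under 10 of 17 alternatives. Among these, the filter of 1 FPKM, supports nothing, since IVL passed it only through NS control, where it was high. The call was lost without NS control replicate 2, BCL9 KD replicate 2 or BCL9 KD replicate 3, without a filter, with the GC correction and with a replicate block with or without it.

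**Figure D5:**
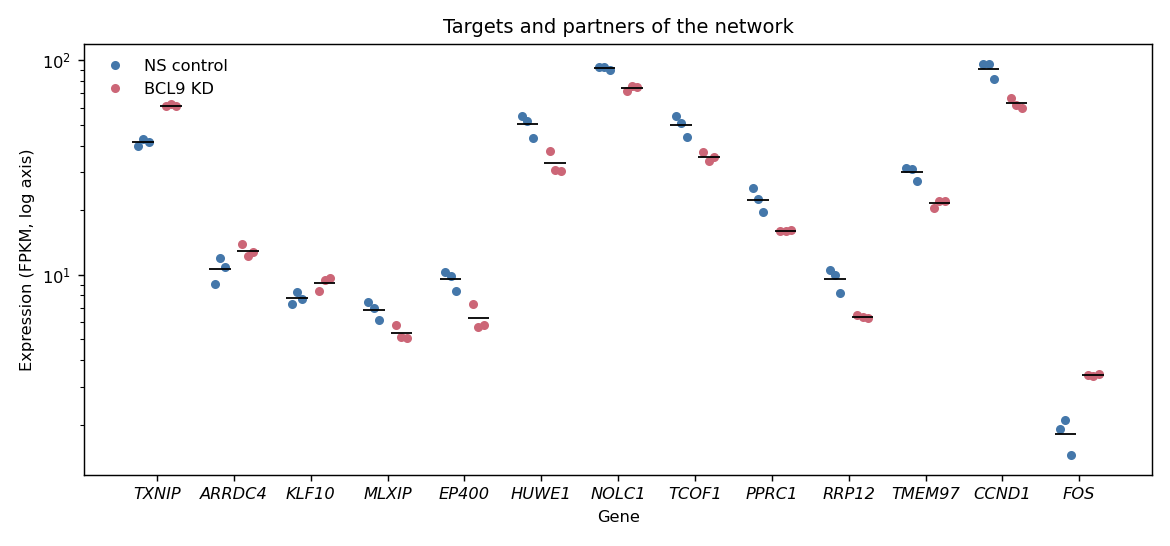
FPKM (log axis) of 13 targets and partners of the network in each NS control and BCL9 KD sample, as points, with the group mean as a bar. The groups were apart for each gene, as in 34.2% of all genes tested. TXNIP rose from a mean of 41.4 to 61.5 FPKM and HUWE1 fell from 50.2 to 33.0 FPKM. All but MLXIP, ARRDC4 and KLF10, which did not pass the test, were plotted as called genes, so the separation supports nothing further.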

How the data were processed

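RNA of 3 NS control and 3 BCL9 KD samples was sequenced in paired-end libraries (NEBNext Ultra RNA). The submitters' processing notes name CASAVA, STAR, HTSeq 0.6.1 and hg38. The authors deposited FPKM, computed from reads per gene, gene length and reads on genes, and tested with DESeq2. FPKM multiplied by gene length gave whole reads (tolerance 0.1, 100.0% of values), from which depth was taken. Without molecular identifiers, reads that copy one molecule count more than once.

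Genes with a mean of at least 0.5 FPKM were tested on log2(FPKM + 0.5) with limma 3.58.1 (R 4.3.3, empirical Bayes with a mean-variance trend, 2-sided), Benjamini-Hochberg adjusted over all genes, at 0.05, and only these 6 samples entered. The code was tested on simulated data. Gene position, length and name came from the deposited table (CIP2A by gene ID, since the table has an older symbol), GC content from GENCODE transcripts (98.8% of genes tested), promoters from RefSeq GRCh38.p14. Named were all members, BCL9, the called genes of each list (at most 6 each way) and every gene of lists of at most 4. The members and lists were chosen with earlier results of these data known. The 17 alternatives were 1 or 0.1 FPKM added, a filter of 1 FPKM or none, median-of-ratios or quantile scaling, voom on recovered reads, no trend, GC correction (loess, span 0.3), the replicate block with and without it, and each sample left out. Replicate numbers did not pair the samples. The methods give fewer biological replicates per condition than the labels, which were followed, so p-values measure the spread between these samples, which may be in part technical.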

Additional observations from a re-analysis of the deposited data

How the results depend on the processing

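Against 807 genes called, the count was 142 without a filter on low FPKM, 1389 with voom, 332 without a trend, 1740 with GC correction, 249 with GC correction and the replicate block (166 higher, 83 lower, against 407 and 400), and 5 to 1712 with 1 sample left out. It was lowest without BCL9 KD replicate 3 (5), NS control replicate 2 (12) or BCL9 KD replicate 2 (13), and highest without NS control replicate 3 (1712). With the replicate block limma called 0 genes, with 3235 at an unadjusted p under 0.05. Same-numbered samples did not deviate together (correlations -0.147, -0.0884 and -0.00287), so the numbers were not taken as pairs. Network members called rose from 0 to 1, MYCN, with a mean of at least 1 FPKM, voom, no trend or GC correction, and stayed at 0 otherwise, the replicate block included. MYCN passed the filter of 1 FPKM only through the group where it was high, so that call supports nothing. MYC-activated genes called, 5 in the report, were 0 without a filter, without a trend, with the replicate block and with GC correction and the replicate block, 3 with median-of-ratios scaling, 8 with quantile scaling, 8 with voom, 9 with GC correction, and 0 to 11 with 1 sample left out. Signs changed for estimates near 0: MYC was -0.00259 and MXI1 -0.02 with quantile scaling, MNT and MLX were 0.07 with GC correction with or without the block. MYC was 0.13 with GC correction (limma adjusted p = 0.174) and ranged from 0.01 to 0.09 with 1 sample left out. With 1 sample left out MAX ranged from 0.07 to 0.24, MXD4 from 0.05 to 0.23, MXD1 from -0.07 to 0.18, MXI1 from -0.01 to 0.09, MNT from -0.04 to 0.04 and MLX from -0.08 to 0.07. The cause of these changes was not tested. Depth limits MYCN and MYCL, with 32 to 108 reads per sample.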
